A study of Mus musculus with 3 samples.

Results

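This account follows 62 rows of the table, of 34617 in all, that encode the motors which move cargo along microtubules and their closest partners. They were chosen by name: kinesin heavy chains (Kif), kinesin light chains (Klc), cytoplasmic dynein chains (Dync1 and the Dynl light chains), dynactin subunits 1 to 6 (Dctn), and the dynein regulators Pafah1b1, Nde1 and Ndel1. The kinesin-2 genes Kif3a, Kif3b and Kif3c were left out. The rule used no measured value.

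The study sampled the main olfactory epithelium of mice aged 4 weeks, and of its 3 samples the 2 RNA libraries are used here. The mOSN library, from mature olfactory sensory neurons, was made from sorted cells positive for EGFP, which in the line OMP-ires-EGFP is made from the Omp (olfactory marker protein) gene, in strain C57BL/6J. The O/Tet3 library was made from sorted cells of mice carrying OMP-tTA and tetO-Tet3-GFP, in strain Fvb. There the Omp driver, active in mature olfactory neurons, turns on a Tet3 transgene, and Tet3 is an enzyme that oxidises 5-methylcytosine to 5-hydroxymethylcytosine. The marker used for sorting the O/Tet3 cells and any pooling of animals are not given in the labels. Both libraries were depleted of ribosomal RNA. Each genotype has 1 library and the genotypes differ in strain, so no test was possible, no difference has a replicate check, and genotype, strain and library cannot be told apart. All differences below describe these 2 libraries.

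Kinesins walk mostly toward the plus ends of microtubules, which in an axon point away from the cell body, and cytoplasmic dynein walks the other way with the help of dynactin. An olfactory sensory neuron depends on both, since it sends an axon to the olfactory bulb and carries many cilia on its dendrite. Other kinesins work in the mitotic spindle, and a further set shapes cilia or acts in signalling from them.

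Values are on the linear scale recovered from the deposited log2(value + 1). Their unit is not named in the file, and their digits look like FPKM, a per-length scale. Levels of different genes are compared on that reading. Where a pair of values is given, the first is from mOSN and the second from O/Tet3. Log2 ratios compare value + 1 in O/Tet3 with value + 1 in mOSN, so that differences of low genes appear smaller than they are, and a fold is the ratio of the plain values. Genes were compared where a library reached a value of 1, and were counted as higher or lower where value + 1 differed by 2-fold or more, a log2 ratio of 1 or above or of −1 or below.

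As a check of the labels, the library labelled O/Tet3 held Tet3 at 145, against 3.72 in mOSN. The file gives no read totals. Of 3757 rows above 0 in both libraries and under 0.5, 99 shared the most frequent log2 ratio of plain values, 0.92. If those rows hold equal read numbers, 1 read was worth about 1.89 times more in O/Tet3. The same value would then stand for fewer reads in that library. Over the 9934 rows at or above 1 in both libraries the median log2 ratio was 0.21, and centred ratios below have this shift subtracted. The cells did not match in their neuronal markers. All 6 mature neuron markers were lower in O/Tet3, with Omp at 298 and 139 and Cnga2 at 238 and 37.9, and they summed to 2672 and 596. Of 6 immature neuron markers 3 were higher, among them Gap43 at 6.41 and 34.8, with a sum of 70.6 and 136, while Dcx, the highest of them in mOSN, was at 29.0 and 19.1. Markers of other cells differed in both directions. Sustentacular markers summed to 26.2 and 9.42, glial markers to 6.53 and 0.804, and blood and vessel markers to 60.9 and 40.3, while multiciliated cell markers, described with the cilium kinesins, summed to 66.9 and 128. Microvillous and gland markers summed to 3.59 and 3.56 with members on both sides: Pou2f3 was at 0.582 and 2.90, while Ascl3 went from 1.58 to a listed 0 and Cftr from 1.02 to a listed 0. The 3 horizontal basal cell markers were all listed at 0 in O/Tet3 and were at most 0.116 in mOSN, below the floor. Fewer cells of a type and less RNA per cell cannot be told apart in such bulk libraries, and the part of these markers in the motor gene differences was not tested.

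Most compared motor genes stayed within 2-fold of value + 1, and so did most of all compared rows, 71.5% of them. Of the 62 genes 47 could be compared, and 36 of these (76.6%) stayed within that line. 9 were higher in O/Tet3, or 19.1% of the 47, where 16.5% of all 12943 compared rows were higher. The higher genes were Kif24, Kif11, Kif2c, Dynll1, Dctn4, Dynlrb2, Dync1li2, Kif5c and Dynlt3. 2 were lower, Kif9 and Klc2, or 4.26% of the 47, where 12.0% of all compared rows were lower. The share of higher genes is thus near that of all rows. The median log2 ratio was 0.03 over the motor genes and 0.21 over all compared rows.

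After centring, 8 motor genes (17.0%) were higher and 4 (8.51%) lower, beside 11.3% and 15.1% of all compared rows. Higher genes then made up 66.7% of the called motor genes in place of 81.8%. Over all rows called after centring, 42.8% were higher. Kif1a at a centred log2 ratio of −1.14 and Kif5b at −1.13 joined the lower genes, and Dynlt3 at 0.88 was no longer counted as higher. Of the 47 genes 43 were at or above 1 in both libraries. Kif11, Kif2c and Dync1i1 were compared through O/Tet3 alone and Kif21b through mOSN alone, and a gene compared that way had to differ to some extent.

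Motor genes stood high in these neurons. The median value of the 47 was 18.4 and 21.8, where all compared rows had medians of 4.08 and 4.81. 28 of the genes were at or above 10 in both libraries, and 14 ranked among the 1000 highest rows in mOSN and 17 in O/Tet3. The summed value of the 61 genes other than Kif24 was 1118 in mOSN and 1222 in O/Tet3.

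**Figure D1:**
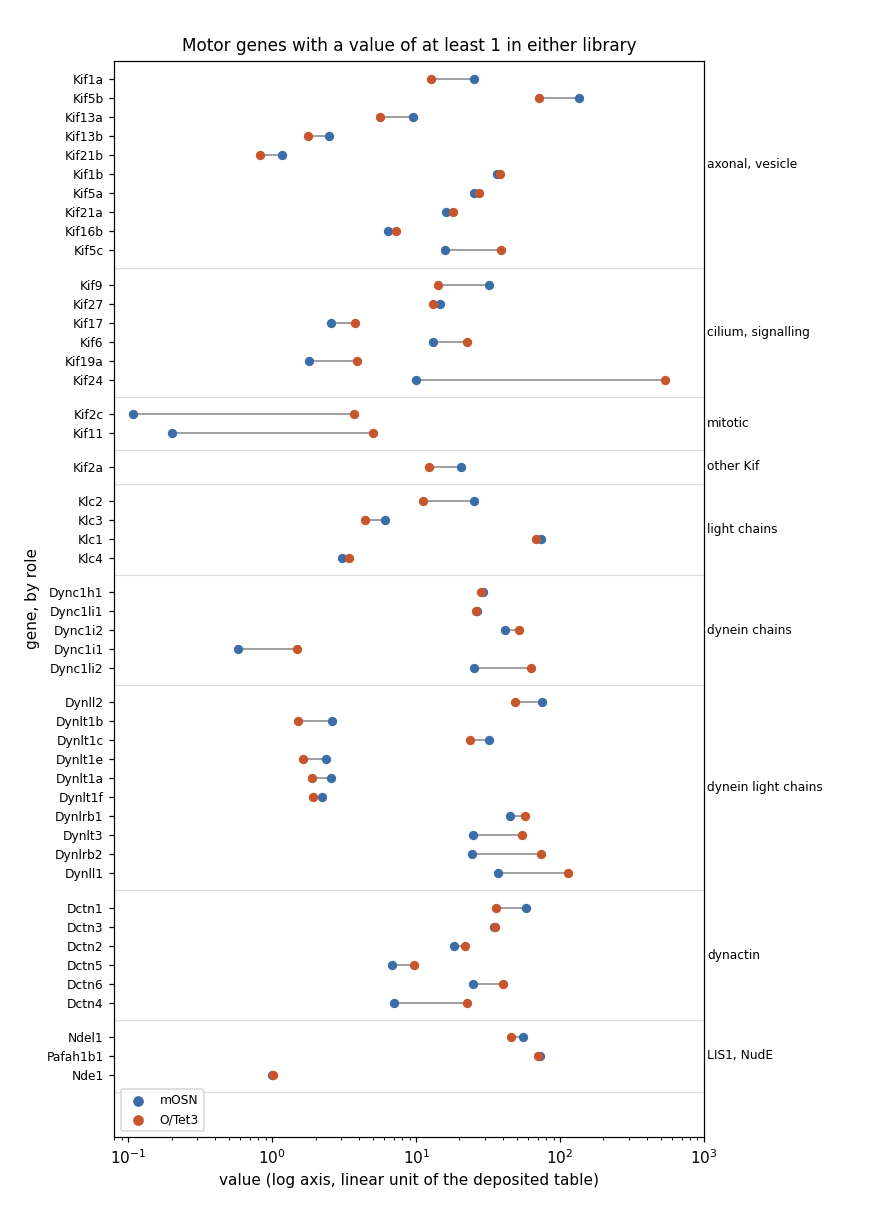
Values of the 47 compared motor genes in the mOSN library (blue) and the O/Tet3 library (orange), on a log axis and ordered by role and log2 ratio. Each point is 1 library. Of the 47 pairs of points 36 differ by less than 2-fold of value + 1. Kif24 spans 9.91 to 538, and the mitotic kinesins Kif11 and Kif2c were under 1 in mOSN.

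**Figure D2:**
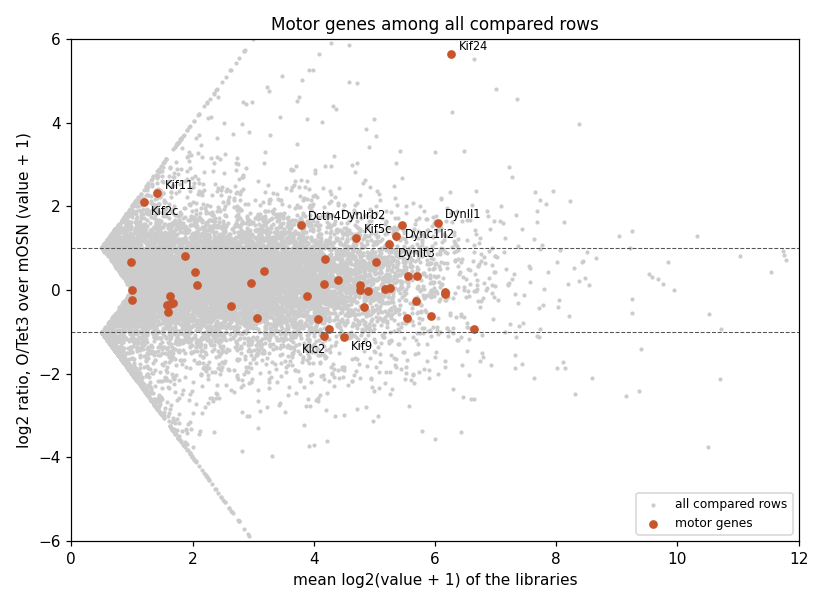
Log2 ratio of O/Tet3 over mOSN against the mean log2(value + 1) for all compared rows (grey) and the motor genes (orange). Dashed lines mark log2 ratios of −1 and 1, and 34 rows lie outside the axes. The 9 motor genes above the upper line and the 2 below the lower line are named.

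Kinesin-1 is the main motor of fast transport along axons and is built from a pair of heavy chains (Kif5a, Kif5b or Kif5c) with light chains (Klc) that bind cargo. Kif5b, the heavy chain present in most tissues, had the highest value of all motor genes in mOSN, at 136, and was at 71.3 in O/Tet3. This is 1.91-fold lower (log2 ratio −0.92), short of the 2-fold line. Kif5a, the heavy chain found mainly in neurons, was at 25.2 and 27.2. Kif5c, also mainly neuronal, was at 15.8 and 38.9, a 2.46-fold higher value in O/Tet3. The summed heavy chain value was 177 and 137. Kif5b held 76.9% of that sum in mOSN and 51.9% in O/Tet3. Kif5c held 8.93% and 28.3%. The ratio of Kif5c to Kif5b, which does not depend on how a library is scaled, was 4.70-fold larger in O/Tet3.

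Among the light chains, Klc1 dominated in both libraries, at 73.3 in mOSN and 68.0 in O/Tet3. Klc2, with Kif9 a lower motor gene, was at 25.3 and 11.2, a 2.25-fold difference. The lesser chains were near each other in the libraries, Klc3 at 6.07 and 4.400 and Klc4 at 3.04 and 3.40. Klc3 overlaps Ercc2 and Klc4 overlaps Mrpl2 in RefSeq on GRCm38.p6, and reads of such pairs could not be separated without the strand setting of the counting, which no source used here states. Ercc2 was at 5.75 and 4.13, close to Klc3 in both libraries. Mrpl2 was at 3.97 and 12.4, a larger difference than that of Klc4.

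The kinesin-3 family carries synaptic vesicle precursors, dense-core vesicles and endosomes. Kif1a, the vesicle precursor motor of neurons, was at 25.2 and 12.7, a 1.98-fold difference just inside the 2-fold line (log2 ratio −0.93). Its relative Kif1b was level, at 36.6 and 38.0. Kif13a was at 9.55 and 5.60, and Kif13b at 2.48 and 1.78. The endosome motor Kif16b was at 6.39 and 7.25. Kif1c stayed below the floor, at 0.621 and 0.371. The kinesin-4 genes, whose products restrain microtubule growth in neurons, did not reach the 2-fold line: Kif21a was at 16.2 and 17.9, and Kif21b at 1.17 and 0.827. Kif2a, a kinesin that takes microtubules apart and prunes axon branches, was at 20.4 and 12.3. Over the 10 compared axonal and vesicle kinesins the median log2 ratio was −0.10, or 0.08 with a floor of 5. Kif5c was the higher gene among them, and 0 were lower before centring and 2 after it.

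The dynein motor showed level core chains and unequal accessory chains. Dync1h1, the heavy chain that holds the motor domain, was at 29.0 and 28.3. The intermediate chain Dync1i2, which contacts dynactin, was at 41.1 and 52.0, and made up 98.6% of the summed intermediate chain value in mOSN and 97.2% in O/Tet3. The neuronal intermediate chain Dync1i1 was low in both, at 0.574 and 1.48. Of the light intermediate chains, which link dynein to cargo adaptors, Dync1li1 was level at 26.3 and 26.1. Dync1li2 was at 25.2 and 62.7, 2.49-fold higher in O/Tet3, and its share of the pair was 49.0% in mOSN and 70.7% in O/Tet3.

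Of the 10 dynein light chains 3 were higher and 0 lower, or 2 higher after centring, where 16.5% of all compared rows were higher and 11.3% after centring. Their median log2 ratio was −0.22, with 6 of the 10 ratios below 0, 5 of these from the Dynlt1 copies, and it was 0.71 with a floor of 5, which leaves out 4 of those copies. Dynll1 and its paralog Dynll2 encode LC8, a small dimer that also serves as a hub for many proteins outside dynein. Dynll1 was at 36.8 and 114. This is 3.11-fold higher, and Dynll1 had the highest O/Tet3 value of any motor gene after Kif24. Dynll2 was the larger of the pair in mOSN, at 75.4, and was at 48.3 in O/Tet3. The order of the paralogs was therefore opposite in the libraries: Dynll1 held 32.8% of their sum in mOSN and 70.3% in O/Tet3, and the ratio of Dynll1 to Dynll2 was 4.85-fold larger in O/Tet3. A similar exchange of order was seen for the roadblock light chains. Dynlrb1 was at 45.2 and 57.5, and Dynlrb2, known from ciliated tissues, at 24.5 and 73.6, 3.001-fold higher in O/Tet3. Dynlrb2 thus held 35.2% of the pair's sum in mOSN and 56.2% in O/Tet3.

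The Tctex light chain Dynlt3 was at 24.9 and 54.1, 2.17-fold higher in O/Tet3. The copies of Dynlt1, by contrast, were all somewhat lower in O/Tet3. Dynlt1c was the highest copy, at 31.9 and 23.8. The others were Dynlt1a at 2.55 and 1.88, Dynlt1b at 2.62 and 1.51, Dynlt1e at 2.36 and 1.63, and Dynlt1f at 2.23 and 1.93. Their sum was 41.7 in mOSN and 30.7 in O/Tet3. These 5 copies are known as near-identical genes, and their sequences were not compared here. The split of reads among them is therefore uncertain, and their like ratios are not separate observations. Dynlt1a overlaps Tmem181a and Dynlt1b overlaps Tmem181b-ps in RefSeq, rows that were themselves at 13.04 and 6.72 and at 18.1 and 7.80.

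**Figure D3:**
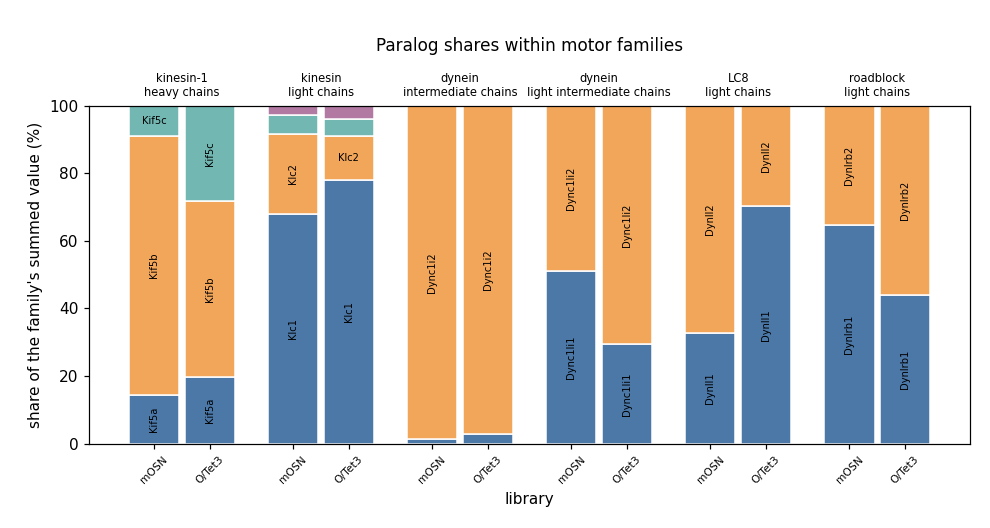
Share of each paralog in the summed value of its family, in percent, in the mOSN and O/Tet3 libraries. Unlabelled thin segments are Dync1i1 at the base of its bars, and Klc3 (lower) and Klc4 (upper) at the top of theirs. Dynll1, Dynlrb2 and Dync1li2 passed from the smaller share in mOSN to the larger in O/Tet3, and Kif5c took 28.3% of kinesin-1 heavy chains in place of 8.93%.

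Dynactin makes dynein processive and links it to cargo. Dctn1, the p150Glued arm that binds microtubules, had the highest dynactin value in mOSN, at 57.5, and was at 35.7 in O/Tet3. Dctn2 was at 18.4 and 21.8 and Dctn3 at 34.8 and 35.5, members of the shoulder that joins the arm to the filament. Dctn2 and Kif5a overlap each other in RefSeq, so part of their reads could be shared. The pointed-end subunits of the filament were each higher in their values in O/Tet3. Dctn4 was at 7.02 and 22.6, 3.23-fold higher and past the 2-fold line. Dctn5 was at 6.74 and 9.64, and Dctn6 at 24.9 and 39.9. The dynactin subunits outside the naming rule were of mixed direction. Of these 6, the capping protein subunit Capza2 was higher at 12.5 and 36.8, and 5 were within 2-fold, with the filament subunits Actr1a at 7.68 and 6.91, Actr1b at 44.4 and 27.9, and Actr10, another pointed-end subunit, at 8.36 and 12.4.

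The regulators of dynein were level. Pafah1b1, which encodes LIS1, was at 72.4 and 69.8. Ndel1, the NudE relative of postmitotic neurons that brings LIS1 to dynein, was at 55.2 and 45.8, and its counterpart Nde1, known from dividing progenitors, at 1.001 and 1.013. The closely related pair was thus set far apart in level in both libraries.

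Kinesins of cilia and ciliary signalling were well represented, with mixed differences. Kif9, known from motile cilia and sperm flagella, was at 32.1 and 14.3, 2.25-fold lower in O/Tet3. Kif6, also known from motile cilia, was at 13.1 and 22.4, and Kif27 at 14.7 and 13.1. Kif17, a motor that has been tied to the transport of the olfactory cyclic nucleotide-gated channel into cilia, was at 2.55 and 3.77. Kif19a, which limits cilium length, was at 1.79 and 3.87, 2.16-fold higher in plain values but not on the value + 1 scale (log2 ratio 0.80). It overlaps Btbd17 in RefSeq, at 0.148 and 1.51. Kif7, the kinesin of the Hedgehog pathway, was listed at 0 in both libraries.

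Markers of multiciliated respiratory cells were present in both libraries beside these genes. All 8 were compared, and 3 (37.5%) were higher and 0 lower by 2-fold of value + 1. Of all compared rows 16.5% were higher and 12.0% lower. The markers summed to 66.9 and 128. Of the 8 log2 ratios 5 were above 0 and 3 below. The gain in the summed value came mainly from Rsph1, at 24.4 and 70.7, and Tekt2, at 0.156 and 18.9. Tekt1 at 10.3 and 5.76 and Dnahc11 at 14.6 and 11.2 had smaller values in O/Tet3. So did Foxj1, which olfactory neurons also express, at 10.9 and 7.22. No marker of this list was at 0. The part of such cells in the values of Dynlrb2, Kif6 and Kif19a, larger in O/Tet3, and of Kif9 and Kif27, smaller there, was not tested.

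Kif24 stood apart from all other motor genes. It encodes a centriolar kinesin that takes microtubules apart and restrains cilium formation. It was at 9.91 and 538, a 54.3-fold difference, and only 41 of the 34617 rows had a larger value in O/Tet3. The genes on either side of it in RefSeq, Ubap1 at 12.4 and 16.7 and Nudt2 at 5.85 and 6.00, were within 2-fold. Among rows whose name is a RefSeq symbol, none overlaps Kif24 on GRCm38.p6, and rows with other names could not be checked. The table has 1 value per gene, so where in Kif24 the reads lie was not analysed here. Without it, 8 of 46 compared motor genes were higher, and the median log2 ratio was 0.02.

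Mitotic and cytokinesis kinesins were close to 0 in both libraries, apart from a pair that was higher in O/Tet3. Of the 12 genes 10 stayed under 1 in both libraries. Kif11, the spindle motor that pushes poles apart and that also slides microtubules in young axons, was at 0.202 and 4.97, a 24.6-fold difference. Kif2c, a depolymerase of kinetochores, was at 0.108 and 3.73, a 34.5-fold difference. The mOSN values are low and rest on an unknown number of reads, so these folds are imprecise. Read on the value + 1 scale, the log2 ratios were 2.31 and 2.09. Kif20b at 0.0780 and 0.690 and Kif22 at 0.0548 and 0.537 came next by log2 ratio. Kif15 was at 0.863 and 0.525, Kif18a at 0.276 and 0.467, Kif4 at 0.0727 and 0.302, Kif20a at 0.0491 and 0.208, Kif23 at 0.157 and 0.145, and Kif14 at 0.0292 and 0.137. In O/Tet3 Kif18b was listed at 0, against 0.0132 in mOSN, and Kif2b was listed at 0 in both. Kif20a overlaps Brd8 and Cdc23 in RefSeq.

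Markers of progenitors and dividing cells stayed low beside them. Of 11 such markers 1 reached the floor, Kit at 0.741 and 1.73, and the list summed to 2.96 in mOSN and 4.30 in O/Tet3. Mki67 was at 0.144 and 0.0517, Top2a at 0.491 and 0.793, and Ccnb1 at 0.147 and 0.269. Of the markers below the floor, Plk1 and Cenpe differed most by log2 ratio, in opposite directions. Plk1 was at 0.817 and 0.0770, and Cenpe at 0.134 and 0.747. Bub1 was listed at 0 in mOSN. Kif11 and Kif2c in O/Tet3 were therefore each above every other mitotic kinesin and every marker of this list.

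**Figure D4:**
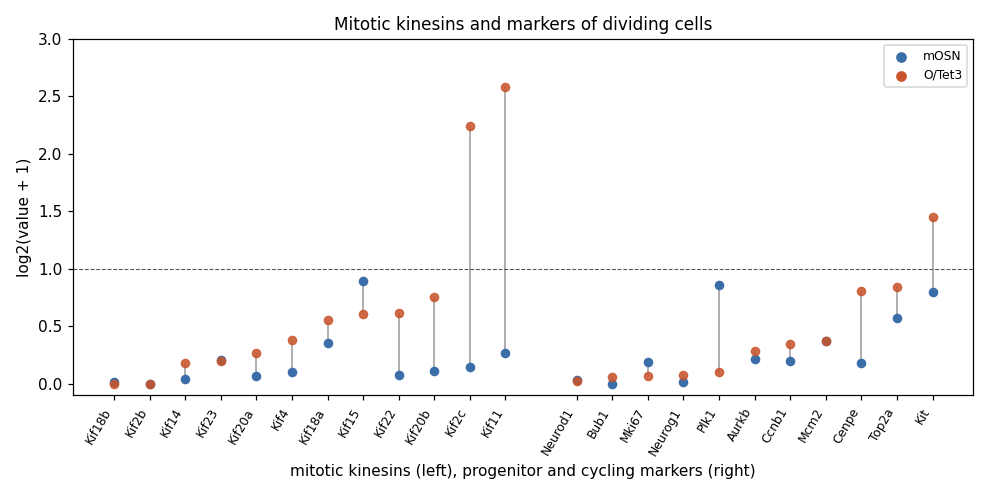
Levels as log2(value + 1) of the 12 mitotic kinesins and of 11 markers of progenitors and dividing cells in the mOSN (blue) and O/Tet3 (orange) libraries. The dashed line marks a value of 1, the floor for comparison. Kif11 and Kif2c lie above it in O/Tet3 alone, as does Kit, and the other genes stay below it.

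Of the remaining kinesins, Kif26b, an atypical kinesin of developing tissues, was at 0.0484 and 0.565, and Kif12 and Kif26a were listed at 0 in both libraries. In all, 15 of the 62 genes stayed below the floor: 4 were listed at 0 in both libraries, and the other 11 had values of at most 0.863, 7 of them higher and 4 lower in O/Tet3. A 0 in the table may stand for an estimate that failed, and no fold is given against it.

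Promoter sequence was set beside the 2 groups of kinesins with a shared role. The promoter table from RefSeq (GRCm38.p6) held 48 of the 62 genes, and the 250 bases before each start were searched on both strands for 10 motifs chosen by hand. The cell cycle homology region TTTGAA, known from genes of late cell cycle, was found in 5 of 11 mitotic kinesin promoters (Kif2c, Kif11, Kif14, Kif15 and Kif22), in 18.8% of all motor gene promoters and in 18.3% of the promoters of all genes. CCAAT was found in 7 of the 11, in 41.7% of all motor gene promoters and in 37.5% of all genes, and was also found in 3 of 4 dynactin subunits and 2 of 3 kinesin light chains. GTTGCC, an arm of the palindrome bound by RFX factors of ciliated cells and contained in another of the searched motifs, was found in 3 of 6 cilium kinesin promoters (Kif9, Kif17 and Kif24), in 22.9% of all motor gene promoters and in 11.8% of all genes. Outside the cilium group 2 of 4 dynein chains (Dync1i1 and Dync1i2) held it, as did Dynll1, Dynlrb2, Kif16b, Kif18a, Kif23 and Klc3. The other motifs searched came from cell cycle, cilium and general promoter factors. They were TTTAAA, found in 4 motor gene promoters and 13.7% of all genes, CACGTG (3 and 6.86%), GTTGCCAT (2 and 1.29%), TTTGGCGC (2 and 0.485%), TTTCCCGC (0 and 1.03%), the NRF1 site (1 and 0.877%) and the full RFX palindrome (0 and 0.133%). The 150 bases before the start are shown for Kif11, a mitotic gene higher in O/Tet3, and for Dynlrb2 and Kif17, a higher gene and one within 2-fold with the same site. Capitals mark the match to TTTGAA, here on the other strand as TTCAAA, or to GTTGCC. The windows are chr19:37376232-37376381 (+), chr8:116504865-116505014 (+) and chr4:138262101-138262250 (+), and none overlaps an annotated gene.
Kif11: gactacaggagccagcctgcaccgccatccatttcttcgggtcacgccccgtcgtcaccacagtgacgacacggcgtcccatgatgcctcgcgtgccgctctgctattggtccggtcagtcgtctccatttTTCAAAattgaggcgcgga
Dynlrb2: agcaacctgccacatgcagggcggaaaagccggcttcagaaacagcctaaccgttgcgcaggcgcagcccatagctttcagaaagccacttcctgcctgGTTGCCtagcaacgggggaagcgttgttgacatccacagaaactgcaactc
Kif17: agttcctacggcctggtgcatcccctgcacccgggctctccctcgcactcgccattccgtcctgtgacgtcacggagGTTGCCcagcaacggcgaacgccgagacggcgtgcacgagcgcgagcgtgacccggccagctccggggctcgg
The match lies 19 bases before the start in Kif11, 51 in Dynlrb2 and 73 in Kif17. A match is a description of these letters and not evidence of a bound site, and genes with the same match had unlike values: Kif15 was at 0.863 and 0.525 where Kif11 was at 0.202 and 4.97.

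Other genes encode the proteins that connect motors to cargo. Among 19 compared kinesin cargo adaptors the median log2 ratio was −0.35, and 4 were lower and 0 higher, where 12.0% of all compared rows were lower and 16.5% higher. Mapk8ip2, a JNK-interacting scaffold that binds kinesin light chains, was at 88.3 and 16.2. Jakmip1, which links microtubules to membrane receptors, was at 105 and 25.9. The lysosomal GTPase Arl8a was at 26.3 and 10.3, and Plekhm2, which joins Arl8 to kinesin-1, at 8.69 and 3.74. The mitochondrial adaptors Rhot1, at 7.65 and 8.70, and Rhot2, at 7.53 and 7.43, were level.

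Of 13 compared dynein activating adaptors 3 were lower and 1 higher, beside the same 12.0% and 16.5% of all compared rows. Ninl was at 13.5 and 2.78, Ccdc64, which encodes a BICD-related adaptor, at 42.2 and 19.3, and Ccdc64b at 5.97 and 1.75. The higher gene was Ccdc99, encoding the kinetochore adaptor Spindly, at 0.0805 and 1.88, so that it too was compared through O/Tet3 alone. Hook1 at 22.5 and 19.9 and Bicd1 at 13.8 and 14.6 were level. All 12 compared plus end and NUDC genes were within 2-fold of value + 1, among them Nudc, which works with LIS1, at 57.5 and 90.4 and Mapre1, encoding the plus end protein EB1, at 21.3 and 35.1. Of the KIFC kinesins, which walk toward minus ends, 1 of 4 was compared, Kifc1 at 0.263 and 1.15.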

How the data were processed

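The authors' deposited table gives 1 log2 value per gene row and library and their difference. As found from the file, the deposited log2 values are log2(value + 1), and 99.4% of the mOSN and 99.3% of the O/Tet3 linear values were numbers of at most 6 digits. Bowtie, Bowtie2, Cuffdiff and the build mm9 are named, without roles or versions, in the submitters' processing notes. Gene models and strand setting were not given in the sources used here. Each column's sample was read from its name, an abbreviation of the genotype. With Python 3.11.15 and pandas 2.3.3, linear values were recovered as 2 to the value minus 1, and ratios taken with a pseudocount of 1, a floor of 1 in either library and a 2-fold line. The counting code was tested on simulated data. Read counts are not in the file, so counting error is unknown. The DNA sample is not analysed here. Every motor gene could be named, and every compared one has its value or its range printed; of other lists, up to 4 genes with the largest log2 ratio, plus some level genes chosen after their values were seen. Members, role groups, lists and motifs were chosen with earlier results of these data known. Gene overlaps and promoters came from RefSeq on GRCm38.p6, where 61 of 62 symbols matched. Alternatives were other pseudocounts, floors, a 3-fold line, centring and leaving out rows at 0. A listed marker of progenitors is not reported here.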

Additional observations from a re-analysis of the deposited data

How the results depend on the processing

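With 1 library per group no alternative could test a difference, and depth limits the low genes most, since their read numbers are unknown. Of 278 counts and medians recomputed under the alternatives, 250 stayed within 1.5 times the count or within the spread of the median over genes, wide for small groups. Many of those were counts of 0 under every alternative or from groups with few compared genes, which had little room to move. 3 medians changed sign: that of all motor genes when centred, and with a floor of 5 those of axonal kinesins, from −0.10 to 0.08, and dynein light chains, from −0.22 to 0.71, over fewer genes by construction. Leaving out Kif24 or the Dynlt1 copies was chosen after seeing the data, and neither moved a count or the median beyond these bounds. With a 3-fold line, which counts fewer genes by construction, 4 motor genes were higher and 0 lower. The share of all compared rows past a 3-fold line was not computed, so these counts have no background beside them. At that line the higher count was 0 for axonal kinesins and 1 for dynein light chains. It was 0 for dynactin subunits, dynein heavy to light intermediate chains, other dynactin subunits, dynein adaptors and myosins. The lower count was 0 for cilium kinesins and kinesin light chains, 1 for dynein adaptors and 2 each for cargo adaptors and myosins. Centring gave 4 lower motor genes, a median of −0.18 and 2 lower axonal kinesins; 7 compared motor genes with ratios near 0 changed sign by construction. A floor of 5 left 0 higher mitotic kinesins, dynein adaptors and myosins, since those genes are below it. A pseudocount of 0.1 or none gave 2 higher cilium kinesins and 2 higher dynein chains in place of 1, and 1 higher plus end gene and 1 higher KIFC kinesin in place of 0. The log2 ratios of low genes grew by construction: with a pseudocount of 0.1 Kif11 was at 4.07, Kif2c at 4.20 and Dync1i1 at 1.23. No paired analysis was possible because the genotypes have 1 library apiece.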

Other observations

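Myosins, the motors that walk on actin, are no part of the microtubule machinery. Of 25 myosin genes 14 were compared, 4 were lower in O/Tet3 and 1 higher, with a median log2 ratio of −0.38, where 12.0% of all compared rows were lower and 16.5% higher and the median was 0.21. Myo6, the myosin that walks toward the minus ends of actin filaments, was at 274 in mOSN, above any of the 62 microtubule motor genes followed here, and at 91.6 in O/Tet3. Myo1c was at 9.93 and 1.73, Myo18a at 5.27 and 0.948, and Myo7a at 3.73 and 0.968. Myo18a and Myo7a were compared through mOSN alone, so they had to differ to some extent. The higher gene was Myo10, a motor of filopodia, at 0.422 and 2.50, and was likewise compared through O/Tet3 alone. The vesicle motor Myo5a, at 33.4 and 27.8, was within 2-fold.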
